A study of Drosophila melanogaster with 4 samples.

Results

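The Hox genes of Drosophila melanogaster lie in 2 clusters on chromosome arm 3R, the Antennapedia complex and the bithorax complex, and this is an account of where POF was found enriched inside them. The members are the enriched regions, called clusters, that touch either complex in 3 deposited lists. The bounds, in coordinates of FlyBase release 5, were 3R:2480000-2830000 for the Antennapedia complex (350 kb) and 3R:12480000-12810000 for the bithorax complex (330 kb). Members were taken by position and not by a measured value, although the bounds and rules were chosen with earlier results of these data known. In the combined list 117 of the 5149 clusters on 3R were members, 56 in the Antennapedia complex and 61 in the bithorax complex. In replicate 1 it was 23 of 1721 clusters, 13 and 10. In replicate 2 it was 23 of 1330 clusters, 15 and 8.

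Hox genes encode homeodomain transcription factors that give the segments of the body their identity along its length. The Antennapedia complex holds lab, pb, Dfd and Scr, which act in the head and the anterior thorax, and Antp, which acts in the thorax. The bithorax complex holds Ubx, which acts in the posterior thorax and the anterior abdomen, abd-A, which acts in the abdomen, and Abd-B, which acts in its last segments. Both complexes are textbook targets of Polycomb group proteins, which keep each gene silent in segments where it was not switched on. POF is an RNA-binding protein that is known for coating chromosome 4 and for binding transcribed genes there.

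All 8 Hox genes were in the gene table used here, which is of genome release 6, on 3R and in the order lab, pb, Dfd, Scr, Antp, Ubx, abd-A, Abd-B. Between lab and Antp it places 14 other protein-coding genes. Among them are the zerknüllt pair zen and zen2, bcd, which encodes the anterior morphogen of the egg, ftz, a pair-rule segmentation gene, and Ama. Between Ubx and Abd-B it places 3. Its positions were not carried over to release 5. No cluster is therefore assigned to a gene, and clusters are given by position within the complex.

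The material was wild-type larvae of the Oregon-R strain in the 3rd instar, with 2 POF ChIP libraries and 2 input libraries and no other genotype or treatment. The antibody was a rabbit polyclonal against residues 1 to 150 of POF. The labels describe homogenized tissue, so cells in which a given Hox gene is active and cells in which it is silent were measured together. The description of ChIP replicate 2 reads as input DNA only and that of input replicate 1 names the antibody, whereas the titles say otherwise, and the titles were followed. Whether the replicates were separate collections of larvae is not stated, and their differences may be technical. On chromosome 4, the known target, clusters covered 3.92% of the sequence in replicate 1 and 27.9% in replicate 2, against 10.8% and 11.0% of 3R. In the combined list it was 31.3% against 34.5% of 3R. Chromosome 4 was thus covered more than 3R in replicate 2 only, and less in replicate 1 and the combined list. The replicates differed on that chromosome and were alike in total on 3R. In replicate 1 and the combined list, coverage therefore did not set the known target above 3R. Whether the clusters of these lists mark POF binding on 3R was not tested.

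The bithorax complex was covered less than the rest of 3R in every list. The covered share, which is the percentage of bases inside clusters, was 4.63% in replicate 1, 4.57% in replicate 2 and 26.2% in the combined list. The rest of 3R, outside both complexes, was covered to 10.98%, 11.1% and 34.7% in the same lists. Both replicate values for the complex lie far below both values for the rest of the arm, and the replicates nearly coincide. The mean over the replicates was 4.60% ± 0.042 (SD, n = 2) in the complex and 11.0% ± 0.061 (SD, n = 2) in the rest of the arm. The ratio of the shares was 0.42 ± 0.0061 (SD, n = 2), and it was 0.75 in the combined list. The near-coincidence of the replicates depends on the bounds and on short clusters. With bounds moved outward by 50 kb the ratio was 0.43 in replicate 1 and 0.62 in replicate 2, and with clusters of at least 2000 bp it was 0.18 and 0.53, and 0.34 in the combined list. The distance from the rest of 3R is larger than the spread between the replicates. That spread does not measure how regions of this size vary along the arm, for which windows are given below. In addition, 2 lists cannot give a two-sided exact permutation p under 0.5, so no test was made.

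The 350 kb on each side of the bithorax complex were covered more than the complex itself. The flank before it, which ends at position 12479999, had 12.3% of its bases in clusters in replicate 1, 12.7% in replicate 2 and 42.4% in the combined list. The flank after it had 8.59%, 9.64% and 27.6%. The complex was thus below both flanks in all 3 lists, although in the combined list it was close to the flank after it.

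The Antennapedia complex was also covered less than the rest of 3R, with less agreement between replicates. Its covered share was 5.51% in replicate 1, 8.67% in replicate 2 and 24.3% in the combined list. Both replicates were below the rest of the arm, at a mean of 7.09% ± 2.23 (SD, n = 2) against 11.0% ± 0.061 (SD, n = 2). The ratio was 0.50 in replicate 1, 0.78 in replicate 2 and 0.70 in the combined list. With clusters of at least 2000 bp alone it was 0, 0.78 and 0.36.

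The flanks of the Antennapedia complex differed less from it. The flank before it was covered to 6.90% in replicate 1, 6.62% in replicate 2 and 28.7% in the combined list. The flank after it was covered to 10.3%, 10.3% and 29.6%. In replicate 2 the complex lay between its flanks and its share was 1.03 times that of both flanks together. In replicate 1 the corresponding ratio was 0.64, and in the combined list it was 0.84. The Antennapedia complex was thus below both flanks in replicate 1 and the combined list, and not in replicate 2.

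**Figure D1:**
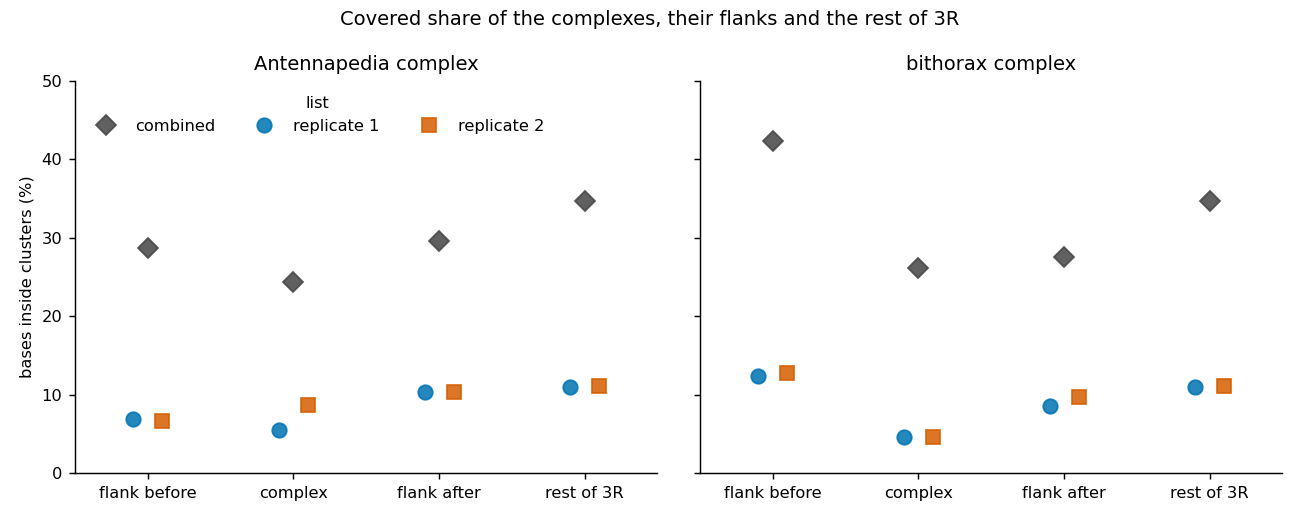
Percentage of bases inside clusters (vertical axis) in each complex, in the 350 kb flanks before and after it and in the rest of 3R, with 1 point per list. In the bithorax panel both replicate points for the complex sit together near 4.6%, below both flanks, while in the Antennapedia panel replicate 2 lies between its flanks.

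Each complex was next set against windows of its own size placed every 10 kb along 3R. Such windows overlap each other and give a description of the arm, not a test. For the bithorax complex, 1.74% of 2758 windows were covered less than the complex in replicate 1, 8.52% in replicate 2 and 15.1% in the combined list. For the Antennapedia complex it was 4.28% of 2756 windows in replicate 1, 34.8% in replicate 2 and 7.62% in the combined list. The median window of bithorax size had 10.4% of its bases in clusters in replicate 1 and 10.1% in replicate 2, and windows ran from 2.91% to 22.5% and from 0.41% to 31.3%. The arm therefore holds windows with much less coverage than either complex, in replicate 2 above all.

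Windows as low as each complex in both replicates at once were also counted. In a count added after the values were seen, 11 of 2758 windows (0.40%) were covered no more than the bithorax complex in replicate 1 and also in replicate 2, and the same number was found when the combined list was added as a condition. Of these, 1 overlapped the complex. For the Antennapedia complex 85 of 2756 windows (3.08%) met the condition in both replicates and 60 (2.18%) in all 3 lists, of which 5 overlapped the complex. The count in both replicates cannot exceed that in either alone. In replicate 1 alone, 48 windows were covered less than the bithorax complex and 118 less than the Antennapedia complex. Small joint counts are therefore partly built into the cut, which is the complex's own value.

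**Figure D2:**
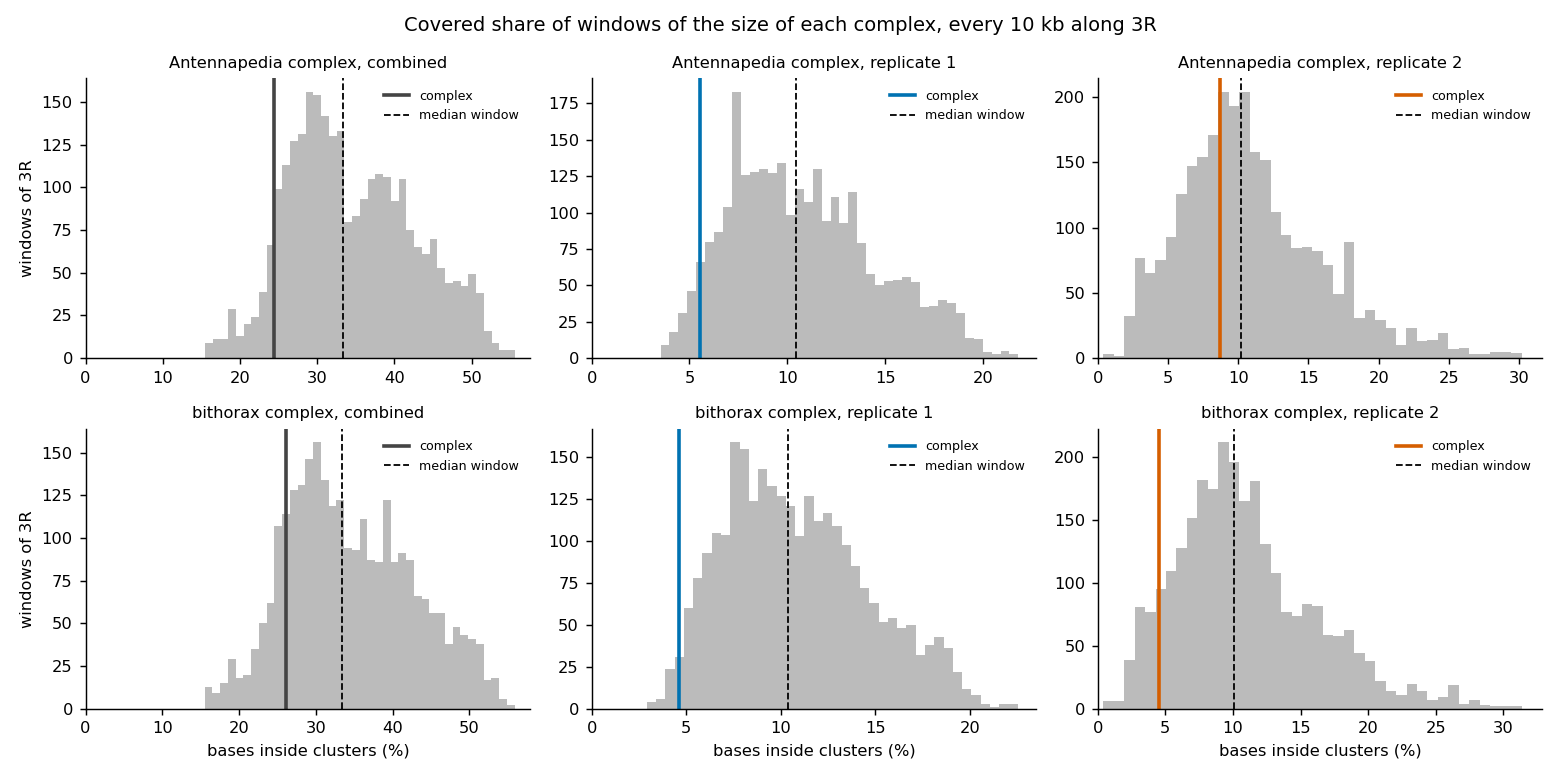
Number of windows of 3R (vertical axis) by the percentage of their bases inside clusters (horizontal axis), for windows of the size of each complex placed every 10 kb, in each list. The coloured line marks the complex and the dashed line the median window; the complex lies left of the median in all 6 panels.

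The complexes held fewer clusters per 100 kb than the rest of 3R in the replicate lists, and their clusters were shorter on average in every list. The bithorax complex held 3.03 clusters per 100 kb in replicate 1 and 2.42 in replicate 2, against 6.24 and 4.80 in the rest of 3R. Its combined clusters numbered 18.5 per 100 kb, like those of the rest of the arm at 18.5. The Antennapedia complex held 3.71, 4.29 and 16.0 clusters per 100 kb in replicate 1, replicate 2 and the combined list, below the rest of the arm in each. The median length of combined clusters was 1246 bp in the bithorax complex and 1290.5 bp in the Antennapedia complex, against 1523 bp in the rest of 3R. Mean lengths in replicate 1 were 1484 bp in the Antennapedia complex and 1527 bp in the bithorax complex, against 1761 bp in the rest of the arm. The combined means were 1521 bp, 1444 bp and 1879 bp in the same order.

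Clusters of at least 2000 bp were less common among the combined members than along the arm. They made up 26.1% of the combined clusters of 3R, and the members included 7 of 56 in the Antennapedia complex (12.5%) and 8 of 61 in the bithorax complex (13.1%). In replicate 1 the share along 3R was 21%, and the members included 0 of 13 and 1 of 10. Replicate 2 differed from this. There 50.6% of the 3R clusters reached 2000 bp, and the members included 8 of 15 (53.3%) in the Antennapedia complex and 6 of 8 (75%) in the bithorax complex. The median lengths in replicate 2 were 2001 bp and 2040 bp, against 2003 bp in the rest of 3R. The mean lengths in replicate 2 were 2024 bp in the Antennapedia complex and 1970 bp in the bithorax complex, against 2305 bp in the rest of the arm. Members of replicate 2 were thus like the arm by their median and shorter by their mean.

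Median scores of the members were close to that of the arm in the combined list, and less so in the replicate lists. The authors gave every cluster a single score, read here as a log2 value and compared only within a list. The median score in the combined list was 0.42 in the Antennapedia complex, 0.44 in the bithorax complex and 0.42 in the rest of 3R. In replicate 1 the medians were 0.55, 0.62 and 0.62, and in replicate 2 they were 0.58, 0.71 and 0.60. The Antennapedia median thus differed from the rest by -0.07 in replicate 1, and the bithorax median was 0.11 above it in replicate 2. That Antennapedia median is the most frequent score of the replicate 1 list, carried by 4 of the 13 members and 3.14% of the 3R clusters. Of the combined clusters of 3R, 10% were at or above the 90th percentile of scores, and the members included 5 of 56 (8.93%) and 6 of 61 (9.84%). In replicate 1 the share along the arm was 10.1%, and the members included 1 of 13 and 2 of 10. In replicate 2 it was 10%, and the members included 1 of 15 and 1 of 8. The combined shares are near the background, and the replicate counts are too small to set against it.

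**Figure D3:**
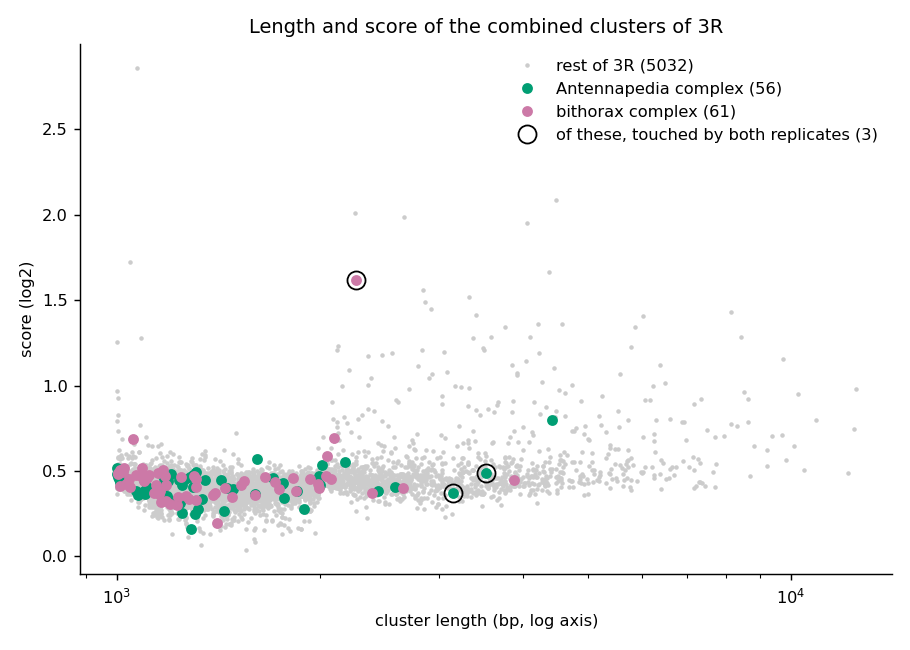
Score on the log2 scale (vertical axis) against length in bp (horizontal log axis) of every combined cluster on 3R, with the members of each complex in colour and the 3 members touched by both replicates ringed. Most members lie at the short end with scores near 0.4 to 0.5, and a single bithorax member stands out at a score of 1.62.

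The strongest member was a bithorax cluster found in all 3 lists at almost the same place. Its combined form spanned 3R:12623389-12625648 (2260 bp), about 143 kb from the first base of the complex, and scored 1.62. The replicate 1 form was at 3R:12623538-12625589 (2052 bp, score 0.80), and in replicate 2 at 3R:12623374-12625658 (2285 bp, score 1.99). The replicate 1 cluster lay wholly inside the replicate 2 cluster, with 2052 bp shared. By score it ranked 8 of 5149 on 3R among combined clusters, 10 of 1330 in replicate 2 and 55 of 1721 in replicate 1. Over all sequences it stood at the 99.1 percentile of combined scores, the 99.2 percentile of replicate 2 and the 91.1 percentile of replicate 1. It was the highest-scoring bithorax cluster of the combined list and of replicate 2, where it was also the longest, and the longest of replicate 1. Its rank was high in all 3 lists, and the combined list is made from the same libraries and adds no separate support.

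The other high bithorax scores were each found in a single replicate or in neither. Next in the combined list was the cluster at 3R:12694134-12696232 (2099 bp, score 0.69), touched by replicate 2 only, where the cluster scored 0.99. It was followed by 3R:12558316-12559373 (1058 bp, score 0.69), touched by neither replicate. The highest score of replicate 1 was at 3R:12543062-12544481 (1420 bp, score 0.86, rank 27 of 1721 on 3R), where replicate 2 had no cluster. The longest bithorax members of the combined list were at 3R:12492422-12496302 (3881 bp, score 0.45), touched by neither replicate, at 3R:12764613-12767270 (2658 bp, score 0.40), also touched by neither, and at 3R:12478294-12480682 (2389 bp, score 0.37), touched by replicate 2 only. The last crosses the first base of the complex and lies mostly outside it. The member touched by both replicates ranked 4 by length and 1 by score among the combined bithorax clusters. In the Antennapedia complex the 2 members touched by both ranked 2 and 3 by length, and 7 and 42 by score.

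The Antennapedia complex held 2 combined clusters that both replicates touched, and neither stood out by score in replicate 2. The cluster at 3R:2502770-2506292 (3523 bp, score 0.49) stood at the 85.6 percentile of 3R scores. It was covered by a replicate 1 cluster of 1598 bp (score 0.73, 88.6 percentile on 3R) and a replicate 2 cluster of 2913 bp (score 0.57, 42.5 percentile), which shared 1012 bp. The cluster at 3R:2582972-2586125 (3154 bp, score 0.37) stood at the 21.0 percentile. Its replicate 1 cluster (1494 bp, score 0.55) and replicate 2 cluster (2009 bp, score 0.58) shared 207 bp, so they overlapped only at their ends. By length they came next after the longest combined member of the complex.

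The highest score of the Antennapedia complex came from a cluster near its first base. It spanned 3R:2481848-2486270 (4423 bp, score 0.80) among the combined clusters, which is 1.85 kb from the bound, and it was the longest member too. Replicate 2 had a cluster there of 4363 bp with a score of 1.09, the highest and longest of its Antennapedia members, and replicate 1 had none. The next in the combined list were at 3R:2751625-2753238 (score 0.57), touched by neither replicate, and at 3R:2644954-2647130 (score 0.55), touched by replicate 2 only. In replicate 1 the highest score was at 3R:2564607-2566039 (1433 bp, score 0.78), and the longest cluster was at 3R:2538357-2540075 (1719 bp, score 0.59). The leading Antennapedia members thus differed between the replicates.

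**Figure D4:**
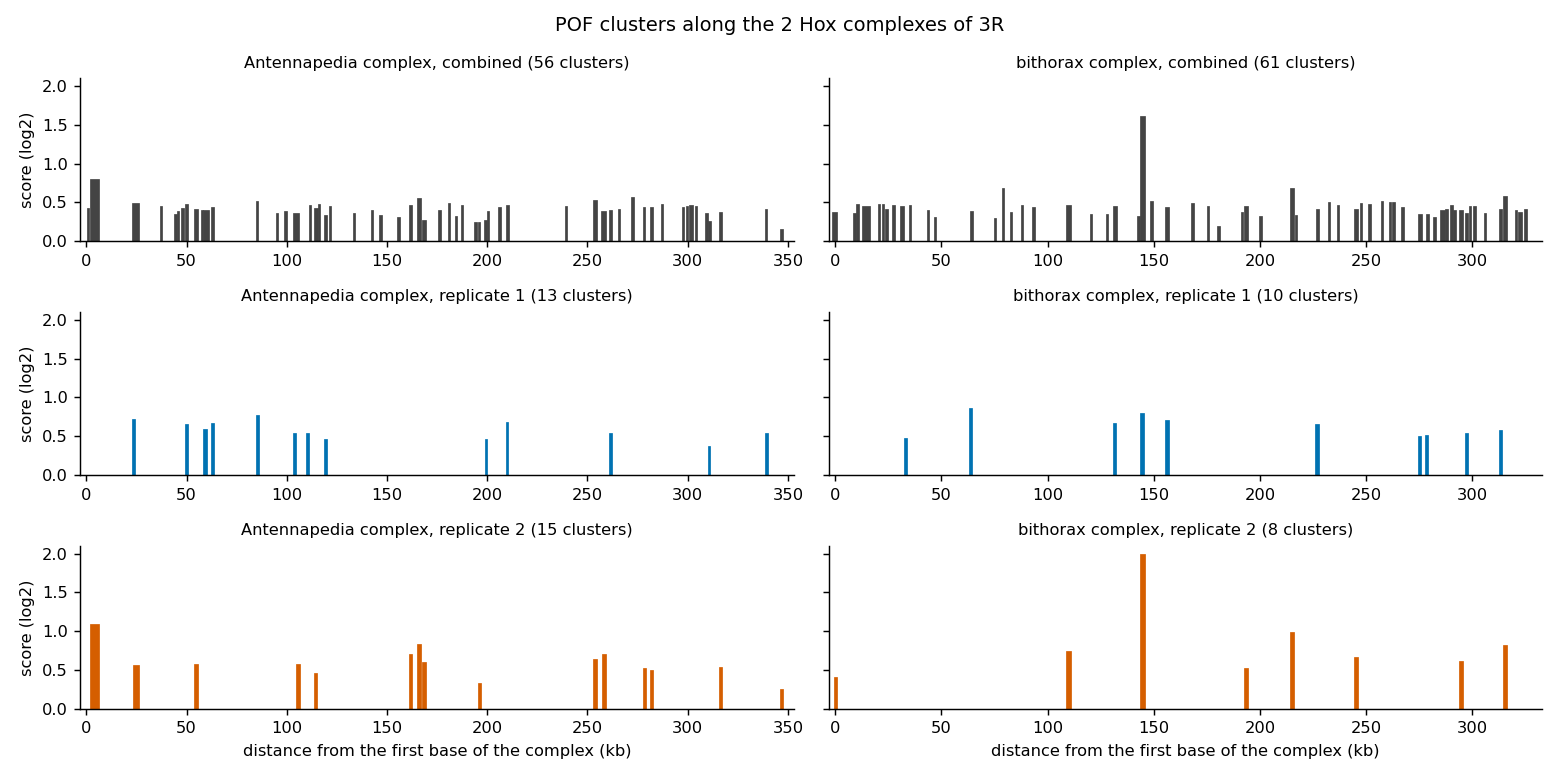
Every cluster along the Antennapedia (left) and bithorax (right) complexes in the 3 lists, drawn at its distance in kb from the first base of the complex, with its width to scale and its log2 score as height. The bithorax cluster near 143 kb is present in all 3 lists, and most other replicate clusters have no partner in the other replicate.

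Counted by an overlap of at least 1 bp, the replicates shared few members. Along 3R, both replicate lists touched 8.51% of the combined clusters, counting any overlap of at least 1 bp. In the Antennapedia complex it was 2 of 56 (3.57%) and in the bithorax complex 1 of 61 (1.64%). Requiring 50% of the combined cluster gave 0 and 1, and counting replicate clusters within 1000 bp gave 2 and 6. The share along 3R is given for the 1 bp rule only. Whether the counts under the other rules are low for the arm was therefore not tested. Replicate 1 only touched 22.6% along 3R, and 11 of 56 (19.6%) and 8 of 61 (13.1%) in the complexes. Replicate 2 only touched 16.9% along 3R, and 13 of 56 (23.2%) and 7 of 61 (11.5%). Neither replicate touched 52% along 3R, and 30 of 56 (53.6%) in the Antennapedia complex and 45 of 61 (73.8%) in the bithorax complex. The bithorax complex thus held as many combined clusters per base as the rest of the arm, but most of them were absent from both replicate lists. The flanks of the bithorax complex did not share this, with 74 of 138 combined clusters (53.6%) touched by neither and 15 (10.9%) by both. No replicate cluster was shorter than 1301 bp, whereas combined clusters went down to 1001 bp. Clusters touched by neither had a median length of 1172 bp in the bithorax complex and 1226 bp in the rest of 3R. A combined cluster this short has no replicate cluster of its own length. The part of cluster length in the bithorax share touched by neither was not tested.

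Seen from the replicate lists, 25.2% of the replicate 1 clusters on 3R were touched by replicate 2, and the members included 2 of 13 in the Antennapedia complex and 1 of 10 in the bithorax complex. Of the replicate 2 clusters on 3R, 31.3% were touched by replicate 1, and the members included 2 of 15 and 1 of 8. Bases in both replicates made up 2.52% of the bases in either in the Antennapedia complex and 7.25% in the bithorax complex, against 11.4% in the rest of 3R. In the bithorax complex all 2052 shared bases came from the cluster at 12623389. The median distance from a replicate 1 cluster to the nearest replicate 2 cluster was 2.90 kb in the Antennapedia complex, 10.5 kb in the bithorax complex and 4.58 kb in the rest of 3R. From a replicate 2 cluster to the nearest of replicate 1 it was 4.17 kb, 13.2 kb and 1.80 kb. The bithorax distances exceeded those of the arm both ways, and the Antennapedia distance was shorter than that of the arm one way and longer the other. The bithorax complex also held fewer clusters per 100 kb in both replicate lists, and the part of this in the small overlap was not tested.

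Coverage was uneven inside the complexes. In bins of 50 kb, with a last bin of 30 kb in the bithorax complex, replicate 1 ran from 2.65% to 8.47% over the 7 bithorax bins, and replicate 2 from 0% to 8.82%. All 7 bins were below the value for the rest of 3R in each replicate. The combined list ran from 14.7% to 42.1%, with 6 of 7 bins below the rest of the arm and the bin from 250 to 300 kb above it. The bin from 0 to 50 kb, counted as below, was about level with the rest at 34.7%. The lowest combined bin lay from 50 to 100 kb, where replicate 2 had no cluster and replicate 1 had 2.84%. Of the 7 Antennapedia bins, all were below the rest of 3R among combined clusters, 6 were below it in replicate 1 and 4 in replicate 2. Its lowest combined bin, from 200 to 250 kb, was covered to 9.96%, with 2.74% in replicate 1 and 0% in replicate 2. The bins were compared only with the share of the rest of 3R as a whole, not with other 50 kb bins of the arm. How often bins of the arm fall this low was not tested. In each complex the lowest combined bin was below the rest of the arm in all 3 lists. It was picked as the lowest of the combined list, which is made from the same libraries. Most bins of each complex were below the rest of the arm in each replicate too. The 3 lists therefore give no separate support for a low spot in these bins.

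**Figure D5:**
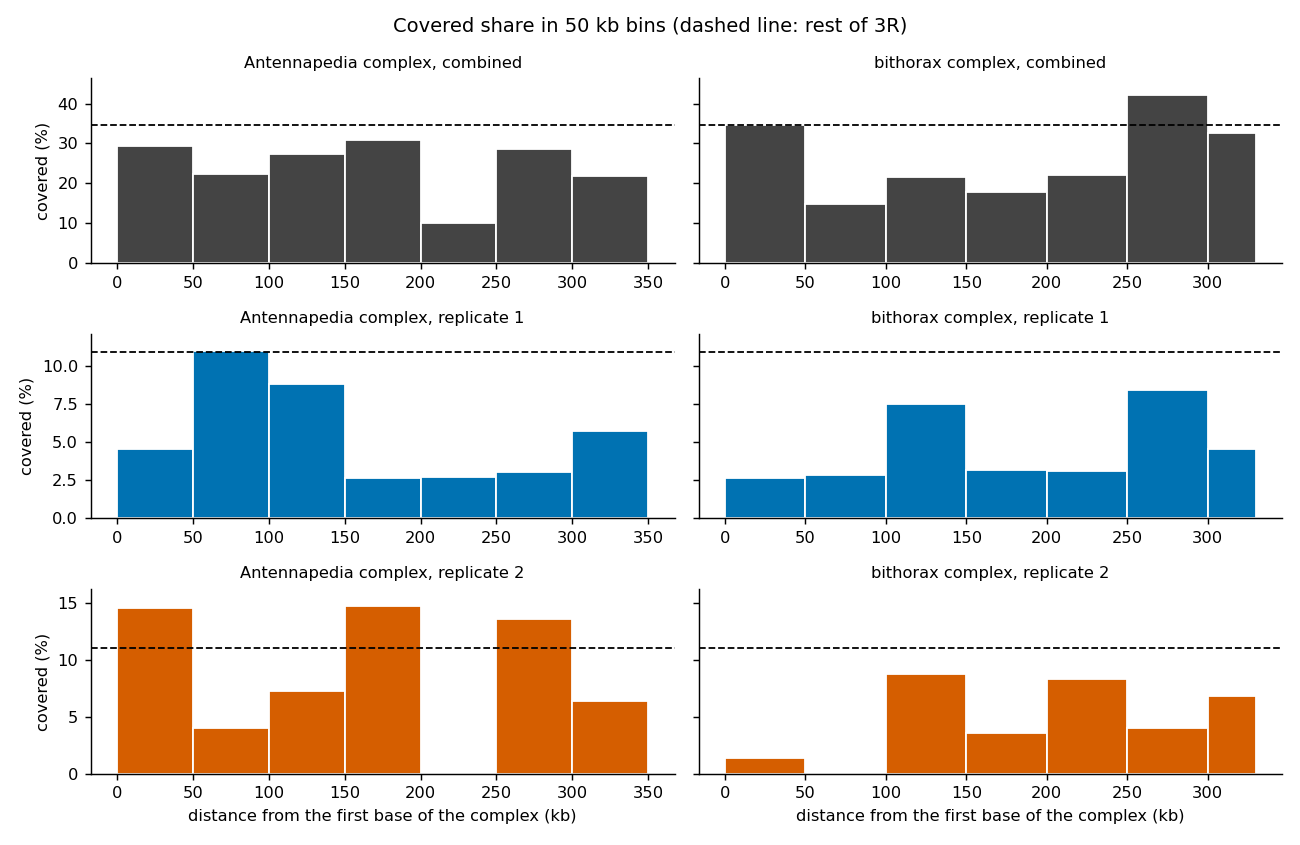
Percentage of bases inside clusters (vertical axis) in successive 50 kb bins from the first base of each complex, by list, with a last bin of 30 kb in the bithorax complex. The dashed line is the rest of 3R in the same list; in the bithorax complex every replicate bar is below it.

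The longest stretches free of clusters in all 3 lists lay in these bins or reached into them. The longest stretch of the Antennapedia complex with no cluster in any of the 3 lists was 3R:2690930-2718747 (27.8 kb), and 18 of the 5136 such stretches on 3R (0.35%) were longer. It was also the longest in the combined list alone. In replicate 2 it was part of a cluster-free stretch of 56.3 kb at 3R:2676690-2732973, than which 109 of 1331 were longer. The longest cluster-free stretch of replicate 1 lay elsewhere, at 3R:2600117-2678665 (78.5 kb), and 28 of 1722 stretches on 3R were longer in that list. In the bithorax complex the longest stretch free of clusters in all 3 lists was 3R:12527520-12543061 (15.5 kb), with 131 of 5136 longer on 3R, and the combined list alone was empty up to 12543252. It lay inside the longest of replicate 2, at 3R:12480678-12588748 (108.1 kb), than which 31 of 1331 stretches were longer. The longest of replicate 1 was at 3R:12636996-12706144 (69.1 kb), than which 40 of 1722 were longer. The long empty stretches of the 2 replicates did not coincide in the bithorax complex, and a stretch without a cluster shows only that nothing passed the authors' threshold there. Each stretch was picked as the longest of its complex but was counted against all single stretches of 3R. A low share of longer stretches is therefore built into the choice and is no sign of unusual emptiness.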

How the data were processed

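The authors deposited enriched clusters with start, end and 1 score each, as a list for each ChIP library and a combined list. The submitters' processing notes name the aligner Bowtie 0.12.7. FlyBase release 5 is the coordinate system, per the file headers. Not given in the sources used here are the enrichment caller, the threshold, the input used and the way the combined list was made. Scores are the authors' deposited values, taken as log2 from the values themselves. In replicate 1, 90.8% of 6241 scores lay at the log2 of a whole-number ratio from the commonest score (denominators up to 200, relative tolerance 1e-09), and 0% did so with natural logarithms. In replicate 2 the log2 figure was 31.1% of 5758 scores, and in the combined list 47.1% of 20052. Without read counts in the lists, the depth is unknown and no interval is given. The 1 depleted region of the combined list is not on 3R.

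Samples were grouped by title. Covered shares, counts, lengths, scores and overlaps of at least 1 bp were computed with pandas 2.3.3 and numpy 2.4.6 under Python 3.11.15, and plotted with matplotlib 3.10.9. The rest of 3R excludes both complexes. Clusters crossing a bound count as members, and only the bases inside the bound enter covered shares. No test was run, since clusters and overlapping windows are not replicates. The interval functions were tested on simulated lists. In the combined list, members were named if touched by both replicates or among the 3 highest scores or 3 longest of their complex; in each replicate list, the highest score and the longest were named. The longest stretch without a cluster was also named. The bounds, members and rules were chosen with earlier results of these data known. The alternatives were a median score filter, a minimum length of 2000 bp, merging within 1000 bp, flanks as reference, bounds moved by 50 kb, the arm without 1 Mb at each end, other windows and other overlap rules.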

Additional observations from a re-analysis of the deposited data

How the results depend on the processing

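The ratio of the covered share of a complex to that of its reference was below 1 under all 7 alternatives in each list, with the exception of the Antennapedia complex in replicate 2 against its own flanks, at 1.03. For that complex, clusters of at least 2000 bp gave 0.36 in the combined list and 0 in replicate 1, and scores at or above the list's median gave 0.56 in replicate 2. For the bithorax complex the replicates differed by so little that most alternatives moved the ratio by more than their spread. In the combined list it was 0.82 with the score filter, 0.34 with the length filter, 0.77 after merging, 0.84 with bounds moved outward and 0.59 with bounds moved inward. In replicate 1 it was 0.49 with the score filter, 0.18 with the length filter, 0.41 after merging, 0.44 against the flanks and 0.45 with bounds moved inward. In replicate 2 it was 0.51 with the score filter, 0.53 with the length filter, 0.40 after merging and 0.62 with bounds moved outward. The cause of these shifts was not tested. Leaving out each replicate in turn gave ratios of 0.50 to 0.78 for the Antennapedia complex and 0.413 to 0.421 for the bithorax complex.

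The share of less covered windows in the combined list was 7.62% for the Antennapedia complex and 34.8% in replicate 2. For the bithorax complex it was 15.1%, and 1.74% and 8.52% in replicates 1 and 2. With an overlap of at least 50% of the combined cluster, 0 Antennapedia members were touched by both replicates instead of 2. With replicate clusters within 1000 bp counted as touching, 6 bithorax members were touched by both instead of 1. No paired analysis was possible because no cluster list of the input libraries was used here and no result comes from a test. With no read counts, a region with no cluster cannot be told from a region of low depth.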

Other observations

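Some members of replicate 1 carried exactly the same score. The most frequent score of that list, 0.55, belonged to 54 of its 1721 clusters on 3R (3.14%). Among the members it was carried by 4 of 13 clusters in the Antennapedia complex and 1 of 10 in the bithorax complex. This was noticed after the values were seen, the cluster at 3R:2583112-2584605 that replicate 2 also touches is among the 4, and its cause was not tested.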
